A study of Homo sapiens with 9 samples.

Results

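The 9 genes described here encode enzymes that make deoxynucleotides and pyrimidine nucleotides. They were chosen by gene symbol, are 9 of 60651 gene rows in the count table, and all 9 passed the filter on low counts. By role they are the ribonucleotide reductase subunits RRM1, RRM2 and RRM2B, the enzymes of thymidine and uridine deoxynucleotides TYMS, TK1 and DUT, and the enzymes of de novo pyrimidine and CTP synthesis CAD, UMPS and CTPS1. The RNA came from HCT116 cells, a widely used line grown from a human colorectal carcinoma and labelled WT throughout, with 9 libraries in 3 labelled groups of 3. The shSLC6A3 DMSO group carried a short hairpin RNA against SLC6A3, the dopamine transporter gene, and received the solvent DMSO. The shCTRL VXN group carried a control hairpin and received an agent called VXN; its full name is not stated, and the title of replicate 3 reads VNN while its treatment label reads VXN. The shCTRL DMSO group carried the control hairpin and received DMSO. No label says whether a hairpin line was 1 clone.

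Beside the counts stand 2 deposited result tables, in which shCTRL V and shDAT D are each set against shCTRL D. The labels pair the shSLC6A3 DMSO libraries with the shDAT D table, the shCTRL VXN libraries with the shCTRL V table and the shCTRL DMSO libraries with both, but the tables' values come from other sets. A DESeq2 rerun on the 3 sets of count columns given below gave all 38907 p-values of each table within 1e-06. The shCTRL V columns were shSLC6A3 DMSO replicate 1, shCTRL VXN replicate 3 and shCTRL DMSO replicate 3, 1 from each labelled group. The shDAT D columns were shCTRL VXN replicate 1 and shCTRL DMSO replicates 1 and 2. The shCTRL D columns were shSLC6A3 DMSO replicates 2 and 3 and shCTRL VXN replicate 2. The data do not show which source names the treatments rightly, so the labelled groups and the tables are given separately.

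Cells build pyrimidines by assembling the ring in CAD, finishing it as UMP in UMPS, and aminating UTP to CTP with CTPS1. Ribonucleotide reductase then converts ribonucleotides to the deoxy form; RRM1 is its large catalytic subunit, RRM2 the small subunit made in S phase, and RRM2B a small subunit that also serves cells outside S phase. TYMS makes thymidylate from dUMP and is the target of 5-fluorouracil, a drug of colorectal cancer care; TK1 salvages thymidine, and DUT removes dUTP so that uracil stays out of DNA. RRM1, RRM2, TYMS, TK1 and DUT are known E2F-regulated genes of the G1/S transition, and CAD is a known MYC target.

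Promoter windows of 3 S-phase genes are shown, chosen as those with the most matches to the motifs below. RefSeq windows (GRCh38.p14, 250 bases before to 50 bases after an annotated start) were matched for 8 genes, 14 windows in all. Both strands were searched for the CCAAT box, CCAAT, and for an E2F site written as TTTCGCGC or TTTGGCGC. No searched window held both motifs, so no matches overlapped. At least 1 CCAAT match lay in 5 of the 14 windows, belonging to 4 of 8 genes (RRM1, RRM2, TK1 and CAD), against 34.6% of all 35116 windows. The RRM2 window below held 3 and the TK1 window 2; 3.26% of all windows held at least 3 and 10.8% at least 2. The E2F letters lay in 1 of 14 windows, at one of the 4 DUT starts, against 1.15% of all windows. The TYMS window held neither motif, nor did the windows of UMPS and CTPS1, and the other windows of RRM2 and TK1 held 1 and 0 CCAAT matches. A match is a description of letters and not a shown binding site. Matches are in capitals, on the strand of the gene.
RRM2, chr2:10122489-10122788, plus strand, CCAAT: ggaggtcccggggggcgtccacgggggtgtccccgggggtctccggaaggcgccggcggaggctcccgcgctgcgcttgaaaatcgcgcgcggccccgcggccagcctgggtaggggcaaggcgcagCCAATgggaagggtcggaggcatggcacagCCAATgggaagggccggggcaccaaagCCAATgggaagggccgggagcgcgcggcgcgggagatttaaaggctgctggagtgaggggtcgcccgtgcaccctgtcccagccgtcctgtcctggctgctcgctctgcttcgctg
TK1, chr17:78187003-78187302, minus strand, CCAAT read as ATTGG: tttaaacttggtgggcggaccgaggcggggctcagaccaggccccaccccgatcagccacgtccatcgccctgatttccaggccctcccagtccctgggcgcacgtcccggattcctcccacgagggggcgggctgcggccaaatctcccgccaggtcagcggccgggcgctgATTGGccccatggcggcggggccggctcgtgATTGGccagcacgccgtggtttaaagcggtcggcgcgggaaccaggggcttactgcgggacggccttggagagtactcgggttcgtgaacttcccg
DUT, chr15:48331947-48332246, plus strand, E2F: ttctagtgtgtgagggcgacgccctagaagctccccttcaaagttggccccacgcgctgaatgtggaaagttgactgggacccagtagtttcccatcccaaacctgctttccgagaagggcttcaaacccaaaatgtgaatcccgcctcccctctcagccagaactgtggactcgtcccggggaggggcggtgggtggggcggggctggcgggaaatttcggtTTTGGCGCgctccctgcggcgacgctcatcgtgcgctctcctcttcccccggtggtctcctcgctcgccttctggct

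Libraries held between 30251364 and 60215785 counts. SLC6A3 had between 0 and 6 counts in every library, so it gave no check of the hairpin. The epithelial markers KRT8 (1749.8 to 2021 CPM, counts scaled to library size with TMM factors), KRT18 (965 to 1226 CPM), EPCAM (321 to 404 CPM) and CDH1 were present throughout, while CEACAM5 reached at most 0.0655 CPM. Of the markers of other cells, PTPRC, PECAM1 and COL1A2 reached at most 0.176 CPM, CD68 lay between 3.27 and 6.71 CPM, and COL1A1 between 18.9 and 47.4 CPM. The cycling marker MKI67 stood at 73.7, 62.2 and 74.4 CPM in the shCTRL V columns and between 518 and 610.2 CPM in the other 6 libraries. Nothing in the labels says whether replicates were independent cultures; p-values therefore measure the spread among these libraries, which could be purely technical. In bulk RNA, fewer cycling cells and less mRNA in each cell cannot be told apart.

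For the reductase genes the shCTRL V columns stood apart from all other libraries, and the labelled groups did not separate. RRM2 (ENSG00000171848.16, GENCODE v29, chromosome 2, 10120698 to 10131419, plus strand) had 73.8, 579 and 581 CPM in shSLC6A3 DMSO replicates 1 to 3, 451, 432 and 44.8 CPM in shCTRL VXN, and 436, 444 and 70.9 CPM in shCTRL DMSO. One library of each labelled group was thus low, and the labelled groups overlapped; shCTRL VXN replicate 3 was the lowest of the 3. RRM1 (ENSG00000167325.15, chromosome 11, 4094707 to 4138876, plus strand) had 37.4, 224 and 218 CPM in shSLC6A3 DMSO, 199, 201 and 32.3 CPM in shCTRL VXN, and 199, 208 and 37.7 CPM in shCTRL DMSO. The same 3 libraries were low. RRM2B (ENSG00000048392.12, chromosome 8) had 168, 99.1 and 100.1 CPM in shSLC6A3 DMSO, 109.6, 113 and 178 CPM in shCTRL VXN, and 106, 111 and 159.9 CPM in shCTRL DMSO. It was highest in the libraries where RRM1 and RRM2 were lowest.

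The thymidine and uridine enzymes followed RRM1 and RRM2. TYMS (ENSG00000176890.16, chromosome 18, 657604 to 673578, plus strand) had 49.7, 297 and 303 CPM in shSLC6A3 DMSO, 259, 247 and 40.2 CPM in shCTRL VXN, and 249.8, 266 and 50.8 CPM in shCTRL DMSO. TK1 (ENSG00000167900.12, chromosome 17, 78174075 to 78187233, minus strand) had 32.0, 213 and 214 CPM in shSLC6A3 DMSO, 203, 222 and 27.9 CPM in shCTRL VXN, and 199, 191 and 33.6 CPM in shCTRL DMSO. For both, the low libraries were again shSLC6A3 DMSO replicate 1, shCTRL VXN replicate 3 and shCTRL DMSO replicate 3. DUT (ENSG00000128951.14, chromosome 15, 48331011 to 48343373, plus strand) had 26.9, 79.5 and 76.5 CPM in shSLC6A3 DMSO, 75.0, 68.4 and 23.3 CPM in shCTRL VXN, and 67.4, 70.7 and 26.8 CPM in shCTRL DMSO. Its low and high libraries were the same, with a smaller gap between them. The library kit is TruSeq RNA v2, which does not mark strand, and the antisense gene ENOSF1 shares 967 exonic bases with TYMS, so reads there cannot be told apart; ENOSF1 itself lay between 22.3 and 36.1 CPM. Processed pseudogenes with symbols of RRM2, TYMS and DUT reached at most 1.33 CPM (RRM2P3), and reads of these near-copies may be split.

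The pyrimidine and CTP enzymes showed the same split over a narrower range. CAD (ENSG00000084774.14, chromosome 2, 27217390 to 27243943, plus strand) had 118, 212 and 215 CPM in shSLC6A3 DMSO, 214, 251 and 122 CPM in shCTRL VXN, and 226, 220.0 and 116 CPM in shCTRL DMSO. UMPS (ENSG00000114491.14, chromosome 3, 124730366 to 124749273, plus strand) had 31.9, 58.5 and 58.9 CPM in shSLC6A3 DMSO, 46.8, 50.4 and 30.6 CPM in shCTRL VXN, and 47.3, 48.0 and 30.5 CPM in shCTRL DMSO. For both, the 3 shCTRL V columns lay below the other 6 libraries. CTPS1 (ENSG00000171793.16, chromosome 1, 40979335 to 41012565, plus strand) had 49.6, 105 and 107 CPM in shSLC6A3 DMSO, 76.1, 76.2 and 47.8 CPM in shCTRL VXN, and 73.8, 74.6 and 48.3 CPM in shCTRL DMSO. CTPS1 was low in the same 3 libraries. For UMPS and CTPS1, as for RRM1, RRM2, TYMS and DUT, shSLC6A3 DMSO replicates 2 and 3 were also above each of the other 7 libraries. The share of all genes with that order was not counted, so it is not shown to be particular to this set.

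**Figure D1:**
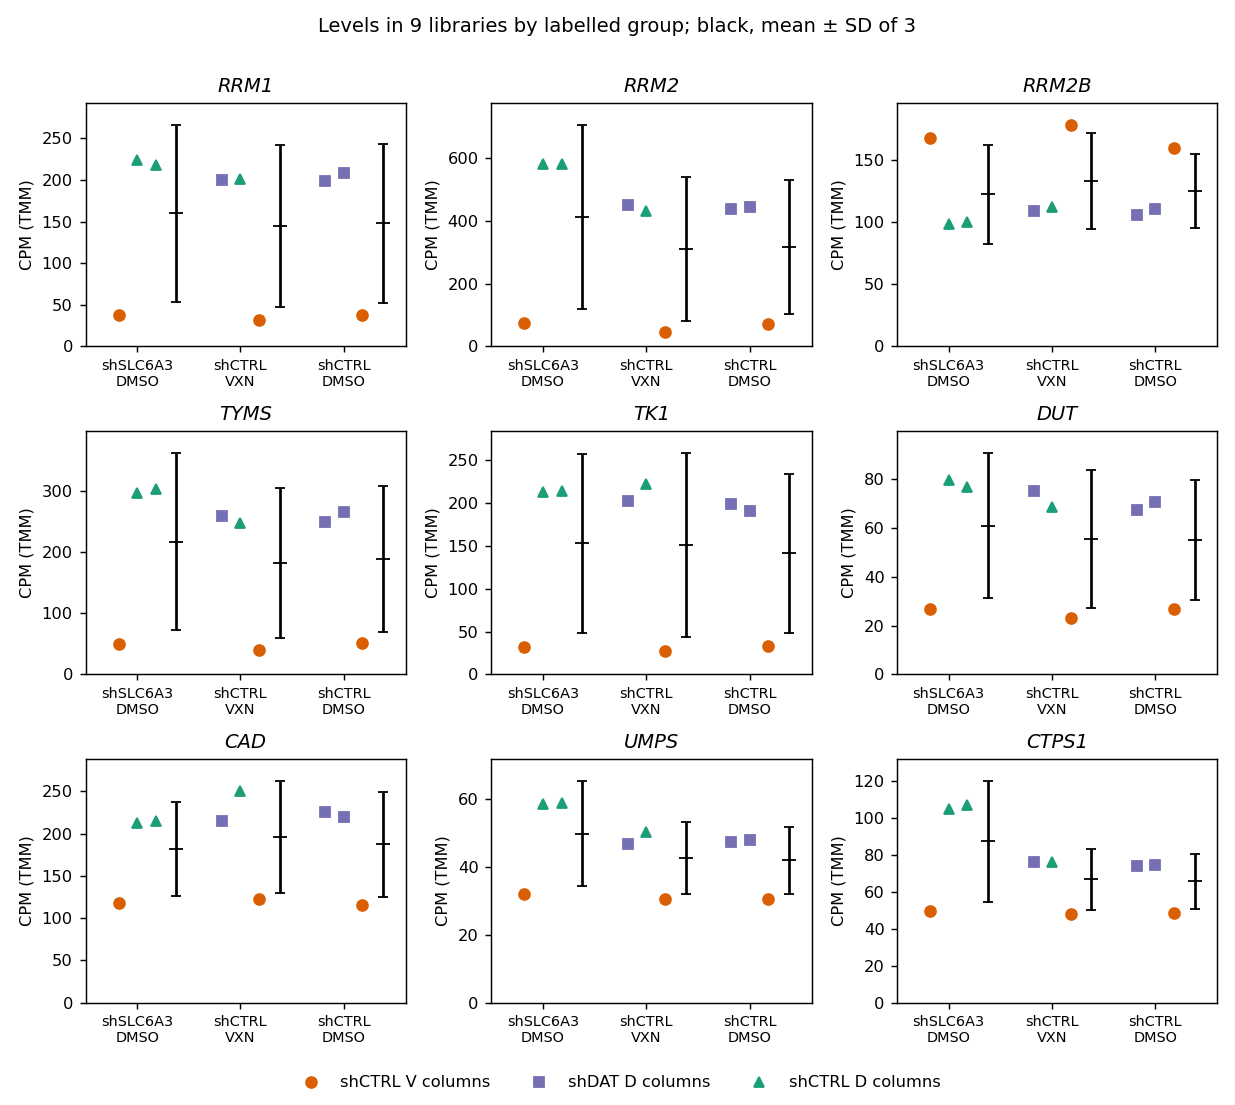
TMM-scaled CPM (vertical axes, from 0) of each gene in the 9 libraries by labelled group, with marker shape and colour for the deposited-table columns and black bars for the group mean ± SD (n = 3). In every panel the 3 shCTRL V columns stand apart from the other 6 libraries, 1 in each labelled group; RRM2B is the panel where they are highest, at 159.9 to 178 CPM.

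Between labelled groups no gene of the set passed the test. RRM2 averaged 411 ± 292 CPM in shSLC6A3 DMSO, 309 ± 229 CPM in shCTRL VXN and 317 ± 213 CPM in shCTRL DMSO (SD, n = 3 each). CTPS1 averaged 87.2 ± 32.5 CPM in shSLC6A3 DMSO, 66.7 ± 16.4 CPM in shCTRL VXN and 65.5 ± 14.9 CPM in shCTRL DMSO (SD, n = 3 each). For RRM2 the differences between group means were smaller than the SD of every group. For CTPS1, shSLC6A3 DMSO differed from the other groups by less than its own SD but by more than theirs. Each SD includes the 1 shCTRL V column that each labelled group holds. Apart from those columns, CTPS1 had 105 and 107 CPM in shSLC6A3 DMSO, against 73.8 and 74.6 CPM in shCTRL DMSO; in those columns it had 49.6 CPM in shSLC6A3 DMSO, against 48.3 CPM in shCTRL DMSO. The labelled test does not separate these kinds of library. For shSLC6A3 DMSO over shCTRL DMSO, edgeR's quasi-likelihood test gave log2 fold changes between -0.04 (CAD) and 0.41 (CTPS1), and the smallest Benjamini-Hochberg adjusted p of the 9 was 0.997. For shCTRL VXN over shCTRL DMSO the log2 fold changes lay between -0.05 (TYMS) and 0.10 (TK1), with adjusted p-values of 1.0 from edgeR.

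Counts over all genes were as low. edgeR called 0 of 9 members and 0 of 19488 genes for shSLC6A3 DMSO over shCTRL DMSO (0.0% higher and 0.0% lower); DESeq2 also called 0, and an unadjusted p under 0.05 was reached by 874 genes with edgeR, 1164 with DESeq2 and none of the 9 with either. For shCTRL VXN over shCTRL DMSO, edgeR called 0 of 9 members, 0.0% of genes higher and 0.0103% lower, which is 2 genes, and DESeq2 called 20 genes and no member; the unadjusted counts were 366 and 423 genes and again none of the 9. With the replicate number as a block, edgeR called 0 genes in that comparison and 308 had an unadjusted p under 0.05. The block was fitted over all 9 libraries, so shSLC6A3 DMSO entered it too. There the shCTRL V column is replicate 1, while in the other labelled groups it is replicate 3. The block fit was therefore not a paired test of shCTRL VXN and shCTRL DMSO. The median log2 fold change of the 9 was 0.15 for shSLC6A3 DMSO and 0.02 for shCTRL VXN, beside 0.0031 over all genes in both. A library left out turned the sign of 7 of the 9 log2 fold changes in the shSLC6A3 comparison and of all 9 in the VXN comparison; for RRM1 they ran from -0.35 to 0.58 and from -0.49 to 0.44.

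Set against shCTRL D, 8 of the 9 genes fell in shCTRL V and RRM2B rose. RRM2, RRM1, TYMS and TK1 fell most, DUT fell less, and CAD, UMPS and CTPS1 fell least. Of 23276 genes with an adjusted p in the authors' deposited table, 23.5% were lower and 21.7% higher, and the median log2 fold change was -1.56 for the 9 genes and -0.0056 for all genes. At least 2-fold falls were seen for 5 of the 9 and for 7.39% of genes in the authors' deposited table; at least 2-fold rises were seen for none of the 9 and for 5.52% of genes. CTPS1 lay at that limit, at -0.99 in the authors' deposited table and at -1.01 without shrinkage in the DESeq2 rerun.

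RRM2 had a mean level 0.119 times that of the shCTRL D columns, from 44.8 to 73.8 CPM in the shCTRL V columns and from 432 to 581 CPM in the shCTRL D columns. Its log2 fold change in the authors' deposited table was -3.08 (SE 0.17, DESeq2 adjusted p = 4.06e-73). RRM1 was given as -2.61 (SE 0.08), TK1 as -2.82 (SE 0.08) and TYMS as -2.61 (SE 0.11) by the authors' deposited table. On the mean CPM scale RRM1 stood at 0.167, TYMS at 0.166 and TK1 at 0.144 times the level of the shCTRL D columns. DUT stood at -1.56 (SE 0.10) in the authors' deposited table, with a mean level 0.343 times that of the shCTRL D columns. RRM2B stood at 0.67 (SE 0.07, DESeq2 adjusted p = 1.16e-20) in the authors' deposited table and 1.62 times the mean level of the shCTRL D columns.

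For the pyrimidine branch the authors' deposited table gave -0.95 (SE 0.07) for CAD, -0.87 (SE 0.09) for UMPS and -0.99 (SE 0.12) for CTPS1. Their mean levels were 0.524, 0.554 and 0.506 times those of the shCTRL D columns. The 3 shCTRL V columns did not overlap the other 6 libraries for any of the 9 genes. How many of all genes were apart in this way was not counted, so the separation is not shown to be particular to the 9. As a ratio RRM2B had the narrowest gap, at 159.9 CPM in the lowest shCTRL V column and 113 CPM in the highest other library. Leaving out any 1 of the 6 libraries in a DESeq2 rerun left 8 genes lower and 1 higher. The same 8 and 1 were counted without shCTRL VXN replicate 2 (25.6% of genes lower, 23.6% higher) and without all 3 libraries labelled shCTRL VXN (24.8% lower, 21.8% higher).

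Cycling markers and regulators moved beside these genes. All 6 cycling markers (MKI67, TOP2A, CDK1, CCNB1, PCNA and MCM2) were lower in the authors' deposited table for shCTRL V, with a median log2 fold change of -2.59. E2F1, an activator of S-phase genes, stood at -2.72 (SE 0.11) and MYC at -0.82 (SE 0.08) in the authors' deposited table. CDKN1A, an inhibitor of cyclin-dependent kinases, stood at 1.49 (SE 0.09) in the authors' deposited table. CDH1, the epithelial cadherin, had 212, 235 and 218 CPM in the shCTRL V columns, against 101 to 108 CPM in the other 6 libraries, and stood at 1.04 (SE 0.07, DESeq2 adjusted p = 8.33e-54) in the authors' deposited table. The other epithelial markers with an adjusted p, EPCAM, KRT8 and KRT18, did not pass the test there. The part of cell cycling, of these regulators or of CDH1 in the 9 genes' levels was not tested.

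**Figure D2:**
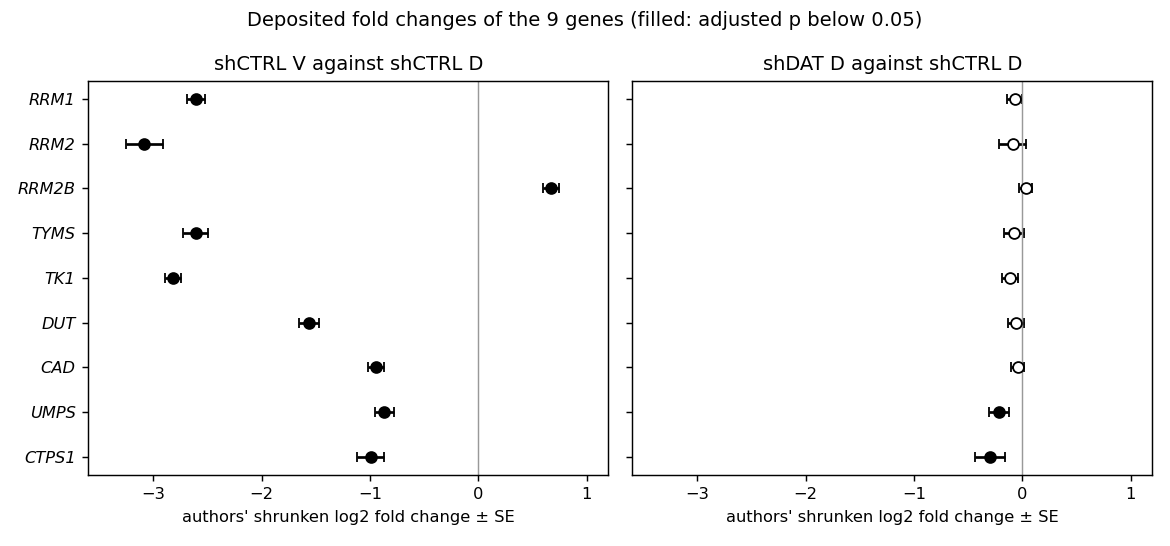
Shrunken log2 fold changes (horizontal axes) with standard errors of the 9 genes in the authors' deposited tables, shCTRL V over shCTRL D on the left and shDAT D over shCTRL D on the right, filled where the adjusted p is below 0.05. On the left 8 genes are lower and RRM2B is higher at 0.67; on the right UMPS and CTPS1 are filled.

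Set against shCTRL D, shDAT D had lower UMPS and CTPS1, and the other 7 genes did not pass the test. CTPS1 stood at -0.30 (SE 0.14, DESeq2 adjusted p = 0.0401) and UMPS at -0.22 (SE 0.09, DESeq2 adjusted p = 0.0418) in the authors' deposited table. The authors' deposited table called 5.72% of 10211 genes lower and 0.94% higher, and its median log2 fold change was -0.077 for the 9 genes and -0.044 for all genes. The other 7 genes lay between -0.12 (TK1) and 0.03 (RRM2B) in the authors' deposited table. This comparison and that of shCTRL V share the shCTRL D columns.

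The shCTRL D columns differed among themselves for CTPS1 and UMPS, called here, and for RRM2, which was not called. CTPS1 had 76.1, 73.8 and 74.6 CPM in the shDAT D columns, against 105 and 107 CPM in shSLC6A3 DMSO replicates 2 and 3 and 76.2 CPM in shCTRL VXN replicate 2, the remaining shCTRL D column. UMPS had 46.8, 47.3 and 48.0 CPM in the shDAT D columns, against 58.5, 58.9 and 50.4 CPM in the same order. RRM2 had 451, 436 and 444 CPM in the shDAT D columns, against 579, 581 and 432 CPM. For all 3 genes shCTRL VXN replicate 2 stood nearer to the shDAT D columns than to the other shCTRL D columns. RRM1, RRM2B, TYMS and DUT did the same. TK1 went the other way, at 222 CPM in shCTRL VXN replicate 2 and 213 and 214 CPM in the other shCTRL D columns. The shDAT D columns had 191 to 203 CPM of TK1. CAD, at 251 CPM in shCTRL VXN replicate 2, was above every other library.

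Without shCTRL VXN replicate 2, a DESeq2 rerun called 6 of the 9 genes lower (RRM1, TYMS, TK1, DUT, UMPS and CTPS1) and none higher, while 23.7% of genes were lower and 14.6% higher. Only shSLC6A3 DMSO replicates 2 and 3 then stood for shCTRL D. The library left out was the shCTRL D column nearer to the shDAT D columns for CTPS1, UMPS, RRM2, RRM1, RRM2B, TYMS and DUT. Leaving it out widens the differences of those genes by construction. TK1, which was not among them, stood at -0.156 with all libraries and at -0.151 without that replicate. CTPS1 was then at -0.54 (SE 0.05, DESeq2 adjusted p = 1.17e-25) and UMPS at -0.35 (SE 0.06, DESeq2 adjusted p = 1.29e-08), and RRM2, at -0.43 (SE 0.21, DESeq2 adjusted p = 0.0974), did not pass. None of the 9 was called without any other single library of the shDAT D or shCTRL D columns. Without shCTRL DMSO replicate 1, though, DUT, UMPS and CTPS1 had no adjusted p. The number of all genes called also varied with the library left out, and its range is given in the closing section. Beside this, edgeR was run on the table columns with all libraries, shCTRL VXN replicate 2 included. That edgeR fit called 0 of 9 and 0 of 19488 genes, with 2 of the 9 and 4089 genes at an unadjusted p under 0.05. It was not run without that replicate. RRM2B and CAD were not called in any of these fits. All libraries labelled shCTRL VXN carry a second run of library numbers in the labels, whose meaning is not stated. Each table group holds 1 of them. Without all 3 of these, 7 of the 9 genes were lower, and 25.3% of genes. That fit set shCTRL DMSO replicates 1 and 2 against shSLC6A3 DMSO replicates 2 and 3, by the labels control over hairpin.

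**Figure D3:**
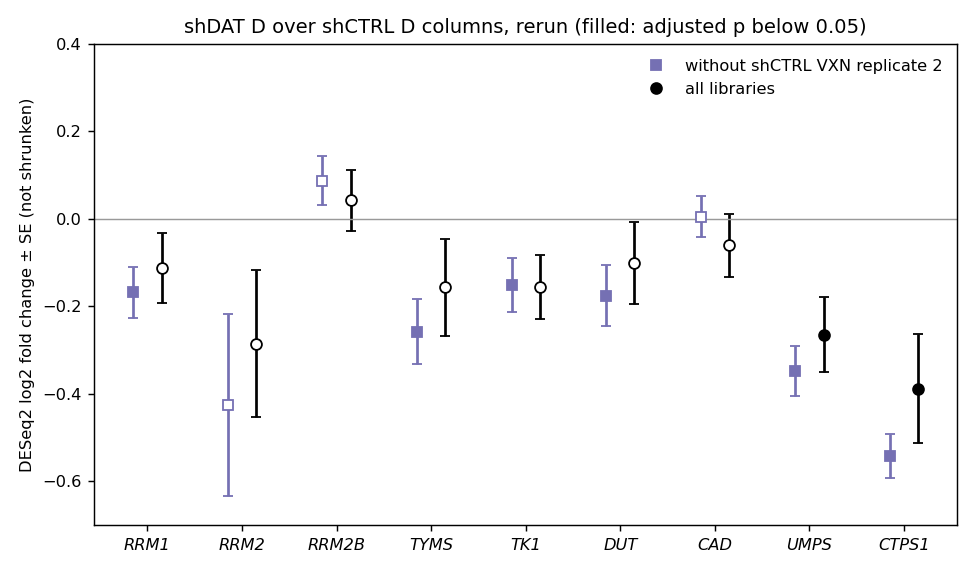
Unshrunken DESeq2 log2 fold changes with standard errors (vertical axis) of shDAT D over shCTRL D columns, without shCTRL VXN replicate 2 (squares) and with all libraries (circles), filled where the adjusted p is below 0.05. With all libraries 2 genes are filled, and without that replicate 6 are.

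Per kilobase of annotated exon the order of the genes differed between the shCTRL V columns and the other libraries. In the shDAT D columns TK1 (106 ± 3.31 CPM per kb; SD, n = 3) and TYMS (105 ± 3.23) led and did not differ beyond their spread, followed by RRM2 (83.3 ± 1.45) and RRM1 (48.3 ± 1.22). CAD (26.1 ± 0.696), RRM2B (19.6 ± 0.506) and DUT (19.3 ± 1.04) came next, the last pair within their spread, and CTPS1 (6.49 ± 0.101) and UMPS (6.25 ± 0.0799) were lowest. The shCTRL D columns kept this order but for RRM2B and DUT, which changed places. In the shCTRL V columns RRM2B was the highest of the 9, at 30.4 ± 1.66 CPM per kb, ahead of TYMS at 19.0 ± 2.37 and TK1 at 16.7 ± 1.59. RRM2 stood at 11.9 ± 3.00 and RRM1 at 8.57 ± 0.718 CPM per kb there. All exons in GENCODE v29 were counted as length, so a gene with long rarely used exons is understated.

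RRM2 as a share of RRM2 plus RRM2B, per length, was 31.3%, 20.8% and 31.6% in the shCTRL V columns, in the order shSLC6A3 DMSO replicate 1, shCTRL VXN replicate 3 and shCTRL DMSO replicate 3. In the other 6 libraries it lay between 80.0% and 85.9%. By labelled group the share was 67.7 ± 31.5% in shSLC6A3 DMSO, 60.6 ± 34.5% in shCTRL VXN and 64.5 ± 28.4% in shCTRL DMSO (SD, n = 3 each). Two-sided exact permutation tests gave p = 0.6 for each labelled comparison with shCTRL DMSO, where 3 libraries against 3 allow no p below 0.1.

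**Figure D4:**
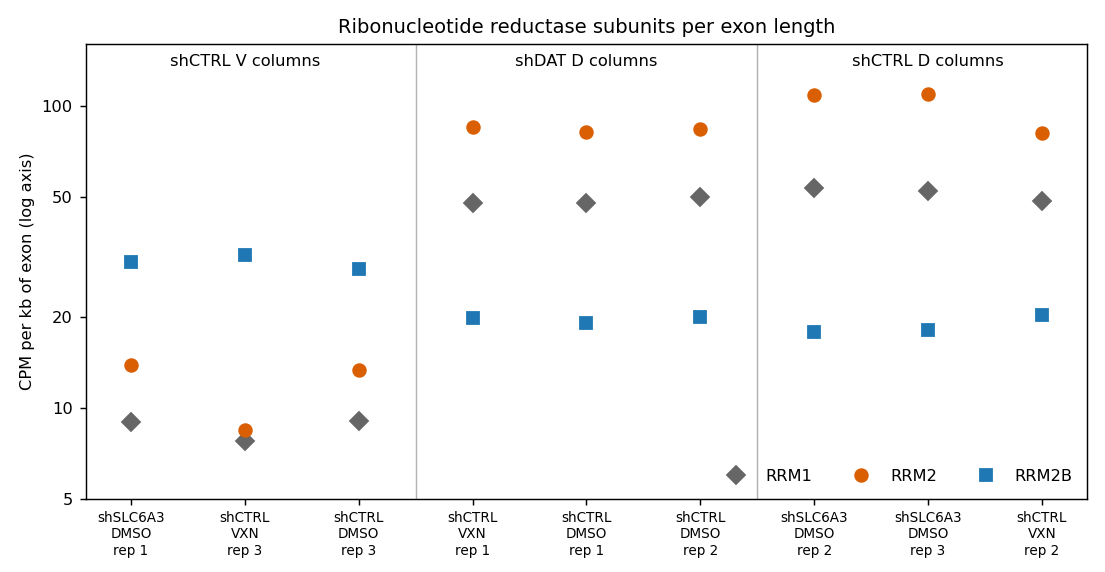
CPM per kb of exon (vertical log axis) of RRM1, RRM2 and RRM2B in each library, with libraries ordered by deposited-table columns. RRM2B is the highest of the 3 in the shCTRL V columns, at a mean of 30.4, and the lowest in the other 6 libraries.

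The 28 other pathway genes reported here, listed by role, mostly fell with the 9 in shCTRL V. Of the 28, 17 were lower and 5 higher according to the authors' deposited table, with a median log2 fold change of -0.63. In the authors' deposited table as a whole, 23.5% of genes were lower and 21.7% higher, so the share of the 28 that was higher lay near that of all genes. Both de novo and CTP genes of the list were lower, DHODH, the mitochondrial step between CAD and UMPS, at -1.16 (SE 0.11) and CTPS2 at -0.91 (SE 0.08) in the authors' deposited table. Among 13 kinase and salvage genes 7 were lower and 2 higher. DCK, deoxycytidine kinase, stood at -1.88 (SE 0.12) and CMPK2, a mitochondrial UMP-CMP kinase, at -1.68 (SE 0.26), against 1.08 (SE 0.18) for cytidine deaminase CDA and 0.56 (SE 0.09) for the mitochondrial thymidine kinase TK2, all in the authors' deposited table. CMPK2 had few reads, with 26 to 32 counts in the shCTRL V columns and at most 2.56 CPM in any library.

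Of the breakdown and pool control genes, 5 of 8 were lower and 2 higher according to the authors' deposited table, the 2 being a share near the 21.7% of all genes that were higher. NUDT1, which clears oxidised nucleotides, stood at -2.34 (SE 0.17) and DPYD, the first enzyme of pyrimidine breakdown, at -1.67 (SE 0.40) in the authors' deposited table. DPYD had few reads, with 15 to 28 counts in the shCTRL V columns and at most 3.24 CPM in any library. Its shCTRL D columns were uneven, at 1.01 and 1.42 CPM in shSLC6A3 DMSO replicates 2 and 3 and 2.88 CPM in shCTRL VXN replicate 2. The higher pair were nucleoside phosphorylases, UPP1 for uridine at 1.94 (SE 0.54) and TYMP for thymidine at 1.21 (SE 0.10) in the authors' deposited table. Among 3 folate-cycle genes 2 were lower, MTHFD1, which interconverts one-carbon folates, at -1.40 (SE 0.06) and SHMT1, the cytosolic serine hydroxymethyltransferase, at -0.76 (SE 0.08) in the authors' deposited table. The 2 nucleoside transporters parted, SLC29A2 at 1.11 (SE 0.07) and SLC29A1 at -1.67 (SE 0.11) in the authors' deposited table.

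In shDAT D, 5 of the 25 pathway genes with an adjusted p were lower and none higher in the authors' deposited table, where 5.72% of all genes were lower and 0.94% higher. They were DTYMK, SAMHD1, DCTPP1, UPP1 and SHMT2, named here after their values were seen; without shCTRL VXN replicate 2 a DESeq2 rerun had 15 of 28 lower and 3 higher, beside 23.7% and 14.6% of all genes. UPP1 stood at -1.44 (SE 0.60, DESeq2 adjusted p = 0.0295) in the authors' deposited table. It had 9.99, 9.55 and 9.94 CPM in the shDAT D columns, against 46.1 and 44.0 CPM in shSLC6A3 DMSO replicates 2 and 3 and 10.6 CPM in shCTRL VXN replicate 2. It had 161, 139 and 166 CPM in the shCTRL V columns, so the 3 kinds of library were ordered differently for UPP1 than for any of the 9 genes. Between labelled groups edgeR called none of the 28 in either comparison.

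**Figure D5:**
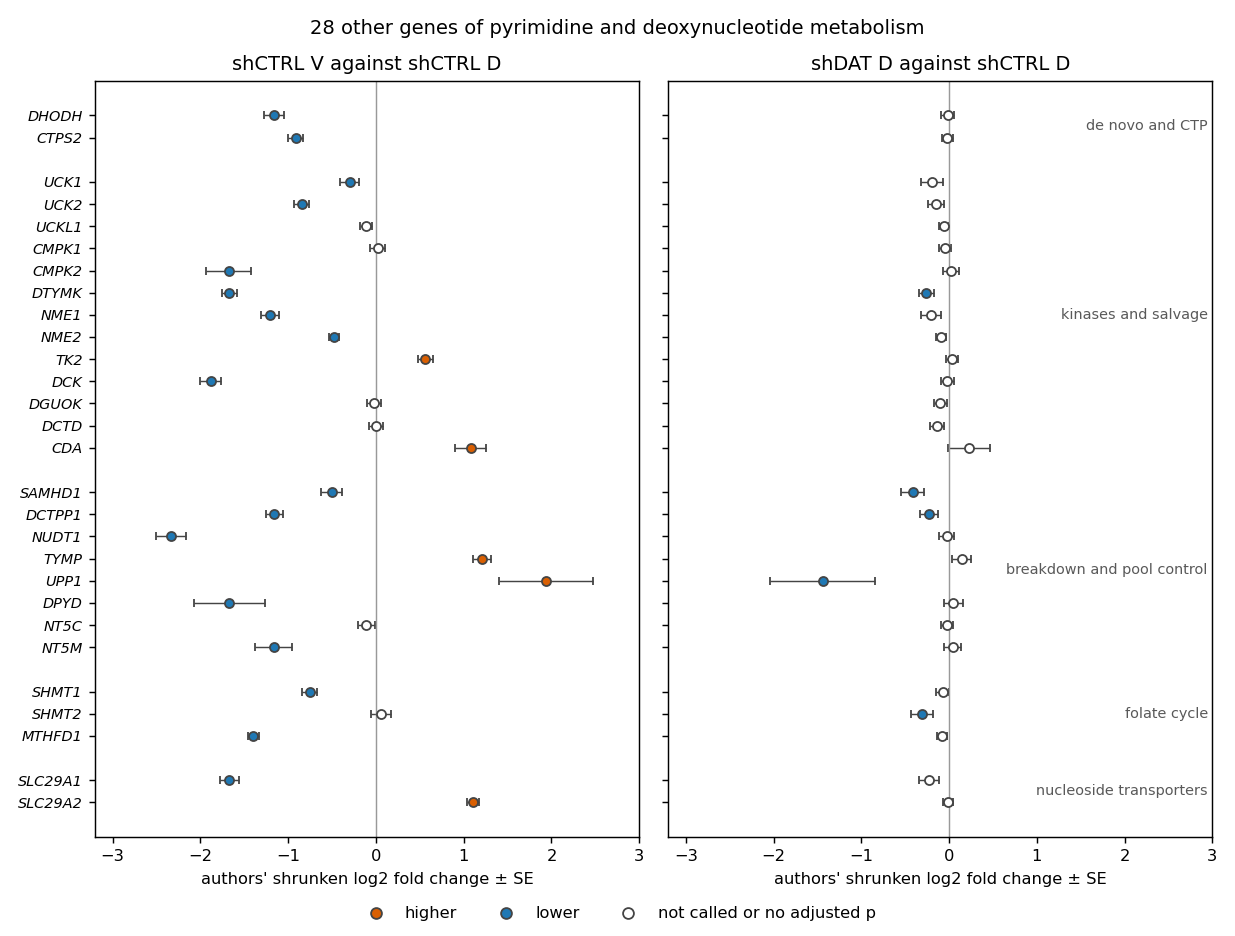
Shrunken log2 fold changes with standard errors (horizontal axes) of 28 other pathway genes by role in the authors' deposited tables, shCTRL V over shCTRL D on the left and shDAT D over shCTRL D on the right; colour marks an adjusted p below 0.05. On the left 17 are lower and 5 higher; on the right 5 are lower.

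Genes with the most similar course over the 9 libraries were ranked for 3 of the members among 11382 genes with a mean of at least 1 CPM, by the root mean square difference of log2(CPM + 1) after centring each gene. For RRM2 they were EXO1, a DNA repair exonuclease, at 0.04, MCM10, a replication initiation factor, at 0.06 and DSCC1, a cohesion factor, at 0.07, where RRM2's own deviation was 1.41. For RRM2B they were CCNL2, TEN1-CDK3 and VPS8 at 0.03 each, where RRM2B's own deviation was 0.32. For CAD they were MAD2L2 at 0.04, VEGFB at 0.05 and NDUFV1 at 0.05, against an own deviation of 0.43. These are descriptions over 9 libraries, among which the shCTRL V columns stood apart from the rest for every member.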

How the data were processed

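RNA from 9 HCT116 libraries was prepared with a TruSeq RNA v2 kit, per the labels' protocols. The submitters' processing notes name fastp 0.20.1, FastQC 0.11.9, STAR, GRCh38 and DESeq2 1.34.0; which program counted the reads, and on which annotation, is not given in the sources used here. Raw counts were deposited for 60651 gene rows and 1181 repeat subfamilies. In the 2 deposited tables, the log2 fold changes and their SE, the p-values and adjusted p-values, and the base mean (a normalised count signal) are the authors'. These fold changes lie nearer 0 than in an unshrunken rerun with the same p-values and are called shrunken here.

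Labelled groups were compared with edgeR 4.0.16 (R 4.3.3; quasi-likelihood, TMM, filterByExpr; 20402 features, 19488 of them genes), with Benjamini-Hochberg adjustment over all features and 0.05 as threshold; DESeq2 1.42.0 was the alternative tool. The fits were tested on simulated data, where DESeq2 made more false calls than edgeR. The simulated libraries had only the spread within the table columns. None stood apart as the shCTRL V columns do, so the simulation does not describe the labelled groups here. DESeq2 was rerun on the table columns, which came with the definition of the gene set; they describe what stands behind the deposited tables and assign no condition to a sample. The members, gene lists and columns were chosen with earlier results of these data known. Named pathway genes were up to 2 per role and direction with the largest change in the shCTRL V table. 1 pathway gene and 1 regulator of the lists are not reported here.

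Replicate numbers are shared between labelled groups. Same-numbered libraries deviated together in shCTRL VXN and shCTRL DMSO (r of 0.851, 0.885 and 0.957 across genes). In shSLC6A3 DMSO and shCTRL DMSO not all of them did (-0.822, 0.821 and -0.831). The deviations were taken from labelled group means, and each group holds a shCTRL V column. That column is replicate 3 in shCTRL VXN and shCTRL DMSO and replicate 1 in shSLC6A3 DMSO. The correlations therefore cannot tell pairing from that placement. The labels give no source of pairing, and the main fits used none. The replicate block was fitted over all libraries and read in both comparisons. In shCTRL VXN, replicates 1 and 2 correlated best with shCTRL DMSO replicates 2 and 1, so those numbers do not single out a partner. Exon lengths and positions are from GENCODE v29, matched by Ensembl ID without its version. Depth was 30251364 to 60215785 counts; the lowest count of a member was 1083.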

Additional observations from a re-analysis of the deposited data

How the results depend on the processing

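Between labelled groups no alternative called any of the 9 genes; the replicate block (edgeR) called 0 genes in either comparison and turned 1 of 54 member values of the shSLC6A3 comparison outside left-out libraries, CAD at 0.020. The log2 fold changes over left-out libraries ran, for shSLC6A3 DMSO over shCTRL DMSO, from -0.35 to 0.58 (RRM1), -0.10 to 0.87 (RRM2), -0.33 to 0.18 (RRM2B), -0.25 to 0.67 (TYMS), -0.35 to 0.60 (TK1), -0.18 to 0.51 (DUT), -0.30 to 0.19 (CAD), 0.06 to 0.49 (UMPS) and 0.23 to 0.69 (CTPS1). For shCTRL VXN over shCTRL DMSO they ran from -0.49 to 0.44 (RRM1), -0.51 to 0.48 (RRM2), -0.18 to 0.30 (RRM2B), -0.50 to 0.42 (TYMS), -0.37 to 0.59 (TK1), -0.32 to 0.38 (DUT), -0.19 to 0.31 (CAD), -0.16 to 0.21 (UMPS) and -0.15 to 0.21 (CTPS1). The difference in the RRM2 share ran from -13.2 to 21.4 percentage points for shSLC6A3 DMSO minus shCTRL DMSO and from -20.3 to 16.1 for shCTRL VXN minus shCTRL DMSO. Genes called for shCTRL VXN, 0 higher and 2 lower with edgeR, were 10 and 10 with DESeq2, and 0 and 0 without the filter on low counts, with the replicate block and without each library. For shCTRL V all 45 member values outside left-out libraries kept direction and call. For shDAT D the members called lower, 2 in the authors' deposited table, were 0 with edgeR, 7 without the second run of library numbers, and 0 to 6 over left-out libraries; CAD was then at 0.023 without that run and from -0.10 to 0.0051 over left-out libraries. Genes called lower for shDAT D, 584 in the authors' deposited table, were 378 with total-count scaling, 0 with edgeR, 5121 without that run and 0 to 4767 over left-out libraries; genes called higher, 96 in the authors' deposited table, were 0, 2830 and 0 to 2926 with edgeR, without that run and over left-out libraries. The cause of these shifts was not tested. A DESeq2 rerun with all 9 libraries was added after seeing the data. The lowest count of the 9 genes was 1083, and the part of depth was not tested.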
